A study of Mus musculus with 5 samples.

Results

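Dlk1-high chondrocytes were those cells of the growth plate whose transcripts were rich in type II collagen and contained Dlk1, and that carried little of the transcripts that mark other chondrocyte states. A cell was counted when Col2a1 supplied at least 300 of every 10000 of its unique molecular identifiers (UMIs, each standing for 1 captured transcript) and when it held at least 5 UMIs of Dlk1. It also had to hold fewer than 2 UMIs of Pthlh, fewer than 20 per 10000 of Prg4 and of Mgp, fewer than 3 of Mki67 and Top2a together, fewer than 3 of Ihh and fewer than 10 per 10000 of Col10a1. These limits took 19744 of the 82516 cells that had 200 to 6000 detected genes and at most 10% mitochondrial UMIs. All limits but that on Dlk1 were met by 22004 cells, so that the Dlk1 limit set 2260 of them aside; these are called Dlk1-low cells below. A further 328 cells held at least 2 UMIs of Pthlh and met the other limits, with no limit set on Dlk1. They are called Pthlh-expressing cells.

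The cells came from femoral and tibial growth plate cartilage of 5 C57BL/6J pups, and 1 BD Rhapsody library was made per pup. By the study's methods the Col2a1-Cre line came from a B6SJLF1 background before crosses to C57BL/6J, so the pups may carry SJL segments. Pups 1 and 2 were wild type (WT); whether they carried Cre is not given in the sources used here. Pups 3, 4 and 5 were mutant, carrying, on 1 chromosome, a conditional knock-in of Trpv4 R594H that Col2a1-Cre recombines, so the mutant channel is switched on in cells that express or have expressed Col2a1 and not in cells outside that lineage. The sample labels give the age as postnatal day 5, whereas the design text gives day 3. The pups were littermates. The pup was the replicate throughout, with n = 2 WT and n = 3 mutant.

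Dlk1 encodes a membrane protein of the Notch ligand family that lacks the domain with which canonical ligands activate Notch, and that can be shed as a soluble factor. It is expressed from the paternal chromosome as part of an imprinted cluster that also yields the maternally expressed noncoding RNAs Meg3, Rian and Mirg. In the growth plate, the resting zone holds slowly dividing chondrocytes that feed the columns of proliferating cells below, which in turn enlarge and become hypertrophic. Parathyroid hormone-related protein (Pthlh), made by a subset of resting cells, and Indian hedgehog (Ihh), made by prehypertrophic cells, regulate the pace of that passage, and inhibitors of Wnt and BMP signalling such as Wif1, Sfrp5 and Grem1 are typical of the resting side.

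In the GRCm38 assembly Dlk1 lies on the forward strand of chromosome 12 from 109452823 to 109463336. Meg3 follows at 109541001 to 109571726, Rian at 109603940 to 109661716 and Mirg at 109729764 to 109749460 of that chromosome. The other genes named as markers of these cells are on other chromosomes: Grem1 on chromosome 2 (113746164 to 113758646, reverse strand), Scube3 on 17 (28142141 to 28174854, forward strand) and Wif1 on 10 (121033960 to 121100650, forward strand). Trpv4, the mutated gene, is on the reverse strand of chromosome 5 (114622152 to 114658421).

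The files held 14003 to 19589 cells and 117746735 to 183322632 UMIs per pup, and 56 of 84326 distinct cell index numbers occurred in more than 1 file. Kept cells had a median of 8521 to 9261 UMIs in the WT pups and 6000 to 7016 in the mutant pups. Among the Dlk1-high chondrocytes the median was 11819 and 10584.5 UMIs in WT pups 1 and 2 and 7812, 6832 and 8103 in mutant pups 3, 4 and 5, so that depth moved with genotype without overlap (exact permutation test, two-sided, p = 0.2, n = 2 and 3). That is the smallest p this test can give with these pups. Xist, transcribed from the inactive X chromosome, stood at 741 and 699.7 counts per 1000000 UMIs (CPM) in pups 3 and 4 and at 0.133 to 0.173 in the others, while the Y-linked gene Ddx3y stood at 182, 222 and 223 CPM in pups 1, 2 and 5, so both WT pups lacked Xist and 1 of the 3 mutant pups did. The part of depth and of these X- and Y-linked differences in the comparisons by genotype was not tested beyond the values given beside them.

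The Dlk1-high chondrocytes carried cartilage genes in every pup, and many of them genes of fibrous tissue too. Summed over their cells, Col2a1, which chose them, supplied 87064 to 112613 CPM, and genes that did not choose them were also those of chondrocytes. Acan, the core protein of aggrecan, stood at 4410 to 5868 CPM and Sox9, the chondrocyte transcription factor, at 1366 to 2210 CPM. The 14 markers of perichondrium, tendon and osteoblasts, Col1a1 among them, summed to 29677 to 46705 CPM. The 14 markers of macrophages and blood summed to 12.6 to 69.2 CPM, against 8792 to 10119 CPM in the macrophages of these libraries. Erythroid markers were more uneven, at 109 to 828 CPM, with the highest sum in WT pup 2. The 8 endothelial and pericyte markers summed to 423 to 591 CPM, of which 396 to 510 were Cspg4, a proteoglycan gene that chondrocytes also express; Pecam1 stood at 1.95 to 5.14 CPM.

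The resting-zone markers were present but were not particular to these cells. Grem1, a secreted BMP antagonist, was at 198 and 115 CPM in WT pups 1 and 2 and at 170, 137 and 123 in the mutant pups. Cells with high Prg4, which the rule sets aside, held as much of it, at 166 ± 31.9 CPM (mean ± SD over 5 pups) against 149 ± 34.7 in the Dlk1-high chondrocytes. Cells with high Mgp and cycling cells held less, at 40.8 ± 10.1 and 45.3 ± 17.0 CPM. Macrophages, which should not make Grem1, gave 4.80 ± 0.98 CPM, and the Dlk1-low cells were at that level, at 3.45 ± 2.27.

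Scube3, a secreted protein with signal peptide, CUB and EGF-like domains, was at 131 ± 16.6 CPM in the Dlk1-high chondrocytes. It was at 159 ± 12.6 CPM in Mgp-high cells, 92.8 ± 21.7 in Prg4-high cells and 3.27 ± 2.89 in macrophages. Wif1, a secreted Wnt inhibitor, was at 285 ± 51.0 CPM, at 222 ± 12.8 in Mgp-high cells and at 1703 ± 138 in Prg4-high cells, which express Prg4 as cells of the joint surface do. Both were thus higher outside the rule, Wif1 in Prg4-high cells and Scube3 in Mgp-high cells, where it was above the Dlk1-high chondrocytes of the same pup in all 5 pups (138, 167, 166, 156 and 167 against 105, 125, 147, 137 and 142 CPM).

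Few single cells held UMIs of all the markers. Grem1 was detected in 26.4 to 39.3% of Dlk1-high chondrocytes per pup, Scube3 in 55.9 to 64.4% and Wif1 in 40.7 to 57.2%. After each cell was thinned to 5000 UMIs, which leaves out 93 to 877 shallower cells per pup, these shares were 22.2 to 31.4%, 37.2 to 48.7% and 34.0 to 50.3%. The same shares in thinned macrophages, a measure of free RNA, were 0 to 1.23% for Grem1, 0 to 1.69% for Scube3 and 7.41 to 15.3% for Wif1, and in thinned endothelial cells 2.29 to 5.22%, 0 to 6.38% and 9.52 to 19.1%. In thinned Dlk1-high chondrocytes 19.98 to 31.4% of cells had none of the 3 and 4.85 to 8.20% had all of them. At these levels a cell that expressed a marker could hold no UMI of it, so these shares are of detection. At least 5 Dlk1 UMIs were counted in 57850, or 70.1%, of all kept cells, so the rule rests as much on what the cells lack as on Dlk1.

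Dlk1 itself, which chose the cells, was not highest in them: in Prg4-high cells it was at 4525, 5061, 5308, 4582 and 4789 CPM in pups 1 to 5, against 3803, 3673, 4868, 4435 and 4158 in the Dlk1-high chondrocytes. It also varied widely among them. The median cell held 45 and 39 Dlk1 UMIs in the WT pups and 39, 31 and 35 in the mutant pups, and the highest cell of each pup held 170 to 255. Cells near the limit, with 5 to 9 UMIs, made up 6.47 to 8.90%. Per 10000 UMIs the middle 50 percent of cells ran from 18.7 to 63.1 in WT pup 2, the widest spread, and from 34.7 to 71.0 in mutant pup 3. Cells just inside the limit, with 5 or 6 Dlk1 UMIs, already differed from those just outside it, with 3 or 4. Grem1 was higher inside in 5 of 5 pups, at 14.8, 2.47, 9.51, 18.5 and 5.92 CPM in pups 1 to 5 against 2.36, 1.75, 2.04, 10.2 and 5.76 outside. In pups 2 and 5 the values inside and outside were close, and near or below the macrophage level given above. These levels come from 103 to 163 cells per pup inside and 135 to 214 outside. Wif1 (22.5 to 75.9 CPM inside, 11.4 to 58.0 outside) and Ucma (1065 to 1960 inside, 865 to 1477 outside) were also higher inside in every pup. In macrophages Wif1 was at 107 and 42.3 CPM in WT pups 1 and 2, above the 44.0 and 22.5 CPM just inside the limit. In mutant pups 3, 4 and 5 macrophages held 51.9, 42.6 and 16.8 CPM of Wif1, below the 63.8, 75.9 and 41.0 inside. Dlk1 itself stood at 268 to 430 CPM inside, against 101 to 288 in macrophages and 141 to 456 in endothelial cells. Scube3 was higher inside in 3 of 5 pups (44.1 to 73.8 CPM against 38.0 to 66.3). Panx3 was lower inside in every pup (492 to 888 CPM against 720 to 1217), and Pth1r, the receptor for parathyroid hormone-related protein, was lower inside in 4 of 5 (96.6 to 196 CPM against 121 to 246). The cells inside were also shallower in every pup, with medians of 12513 to 20419 UMIs against 14920 to 23214, and the part of depth in these values was not tested.

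Levels of other genes followed Dlk1 in steps. All cells that met the other limits were thinned to 5000 UMIs and grouped by the Dlk1 UMIs left. The rule counts UMIs before thinning, so the groups below 5 also hold Dlk1-high chondrocytes. In WT pup 1 the groups with 0 and 1 to 4 held 233 and 481 cells, against 292 thinned Dlk1-low cells. From cells with no Dlk1 UMI to those with 1 to 4, 5 to 9, 10 to 19, 20 to 39 and at least 40, Grem1 went from a mean of 3.06 over the 5 pups to 16.1, 81.5, 149, 179 and 243 CPM. Scube3 went from 51.4 to 61.0, 87.6, 124, 166 and 197 CPM, a shallower course. Wif1 went from 16.1 to 63.5 and then 293 CPM at 5 to 9 UMIs, with 306, 354 and 417 CPM above that.

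A pair of imprinted genes, chosen after their values were seen, went in the same order. Mest, an imprinted gene of the hydrolase fold family on chromosome 6, went from 192 to 273, 699, 1393, 1921 and 2201 CPM, and Meg3, the noncoding RNA of the Dlk1 cluster, from 382 to 593, 1254, 1971, 2398 and 2736 CPM. Ucma, a secreted matrix protein of the upper growth plate, levelled off, with 1115, 1712, 3410, 5297, 6482 and 6051 CPM.

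Some genes ran the other way, named here after their values were seen. Panx3, a channel protein of prehypertrophic chondrocytes, went from 932 CPM in cells with no Dlk1 UMI to 554, 117, 15.7, 4.37 and 4.50 CPM, and Pth1r from 207 to 131, 47.0, 27.6, 25.5 and 29.6 CPM. H2-Ab1, which encodes a chain of the major histocompatibility complex class II, went from 157 and 170 CPM in the lowest groups to 106, 36.6, 10.7 and 5.83. Trpv4 changed less, from 234 CPM with no Dlk1 UMI to 151 at 40 or more. These are levels over groups that Dlk1 defined and are given without a test.

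**Figure D1:**
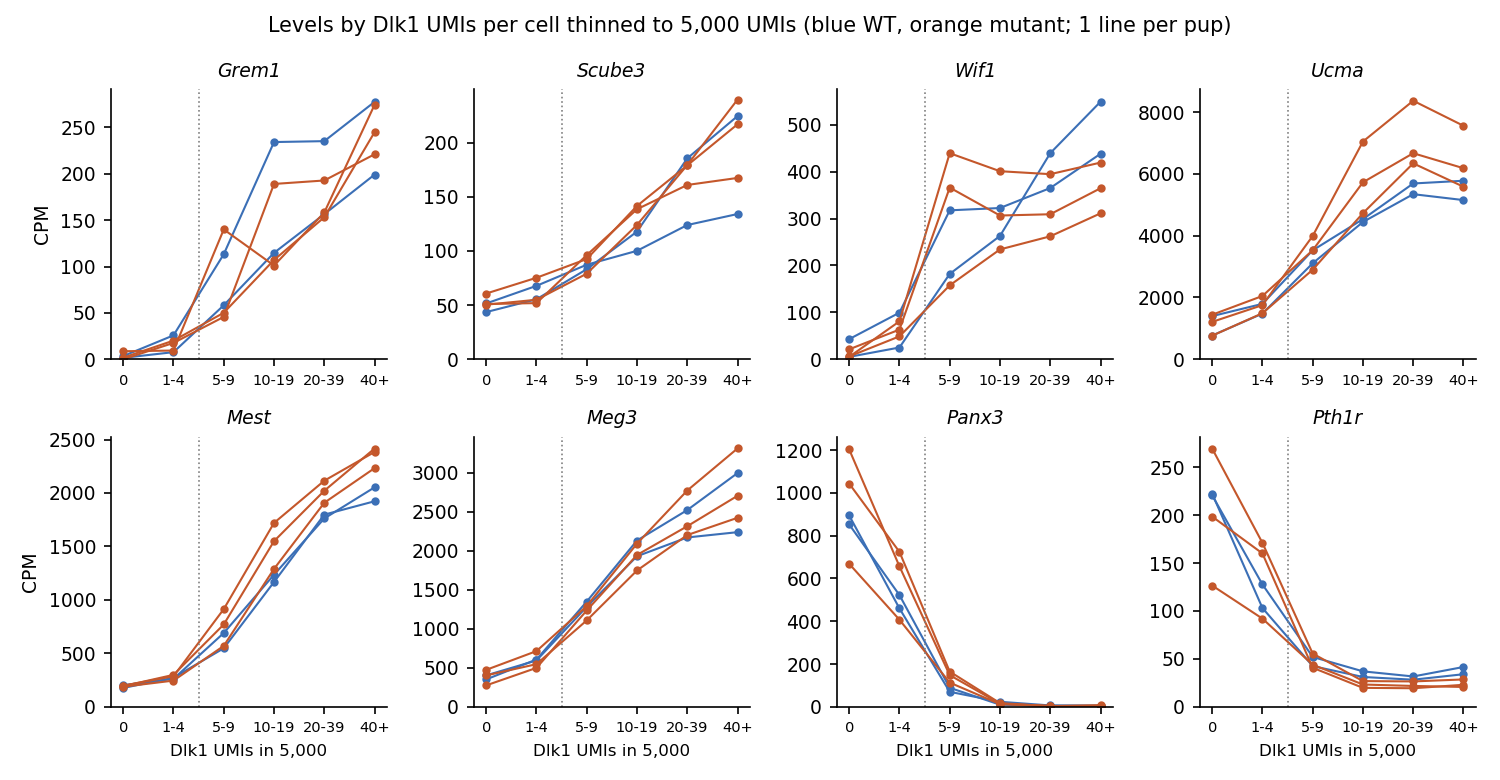
Level in CPM (vertical axes, each from 0) of 8 genes in cells that met every limit but that on Dlk1, by Dlk1 UMIs per cell after thinning to 5000 UMIs; each line is 1 pup (blue, WT; orange, mutant) and the dotted line marks 5 UMIs. The dotted line counts UMIs after thinning and is not the limit of the rule. In all 5 pups Grem1, Scube3, Wif1, Ucma, Mest and Meg3 are higher and Panx3 and Pth1r lower at 40 or more UMIs than at 0, with the difference spread over several steps.

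A like contrast held within the Dlk1-high chondrocytes alone. In the quartile of cells with the most Dlk1 per UMI, compared with the quartile with the least, Panx3 was at 4.74 against 348 CPM, Runx3, a transcription factor of chondrocyte maturation, at 4.29 against 92.0, and Nog, the BMP antagonist noggin, at 4.09 against 54.3. Mest stood at 2158 against 596 CPM and Meg3 at 2642 against 990. Genes of the resting side did not all rise with Dlk1. Grem1 was at 230 against 58.3 CPM and Wif1 at 405 against 160, but Sfrp5 was at 24.2 against 168 CPM, lower in every pup. The quartile with the least Dlk1 also held deeper cells, with medians of 8522 to 16518 UMIs against 6306 to 10151, and the part of depth in these values was not tested.

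Type I collagen divided the Dlk1-high chondrocytes. Col1a1, which the rule did not use and which bone, tendon and perichondrium make in bulk, ranked first in cell-to-cell variability in each of the 5 pups. Its distribution had 2 humps with a shallow trough between them. With a boundary of 50 per 10000 UMIs, placed on the left side of that trough after the distribution had been seen, 34.4 and 27.5% of the WT cells and 38.3, 37.0 and 26.8% of the mutant cells fell on the high side. Between 8.84 and 16.9% of cells per pup lay within a factor of 2 of the boundary, so these are ends of a range. In the mutant pups the fewest cells lay to the right of the boundary, and in pup 4 the interval that holds it had 165 cells against 106 in the lowest one, so the high side there takes in the edge of the left hump. With a boundary of 300 per 10000, the share on the high side was 22.7 and 16.5% in the WT pups and 24.4, 21.7 and 16.2% in the mutant pups.

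**Figure D2:**
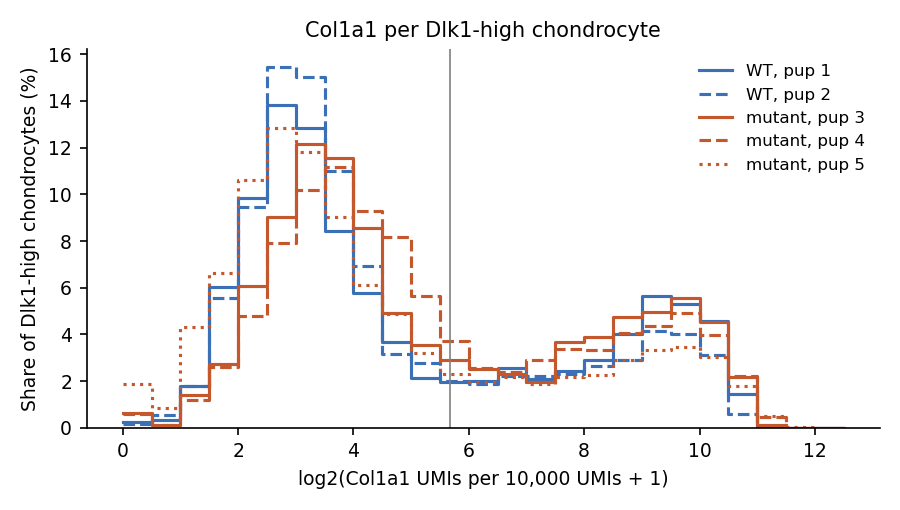
Share of Dlk1-high chondrocytes (vertical axis, percent) by Col1a1 per cell (horizontal axis, log2 of UMIs per 10000 plus 1), 1 line per pup; the grey line is the boundary of 50 per 10000. Each pup has a larger hump on the left and a smaller one on the right, and 26.8 to 38.3% of cells lie to the right of the boundary.

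Cells on both sides were rich in Col2a1 and held Dlk1, as the rule required of every cell. Col1a1-high cells had 56410 ± 3693 CPM of Col1a1 and the rest 1072 ± 208 (SD, 5 pups), whereas Dlk1 was at 4554 ± 220 and 4034 ± 600 CPM and Col2a1 at 94209 ± 6470 and 103775 ± 11509. Medians of UMIs were alike, from 7200 to 11228.5 on the high side and from 6657 to 12064 on the low side.

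The Col1a1-high cells carried more of the genes of tendon and fibrous tissue. Tnmd, the tendon protein tenomodulin, was at 340 and 267 CPM in the WT pups and 204, 331 and 161 in the mutant pups, against 8.08 to 26.6 CPM in the rest. Postn, which encodes the fibrous matrix protein periostin, was at 472 against 36.2 CPM, Aspn (asporin) at 177 against 8.20 and Lox, an enzyme that crosslinks collagen, at 212 against 22.0. Of 11 measured markers of perichondrium, tendon and osteoblasts, including Col1a1 itself, 10 were higher and 1 lower in all pups, and of 25 cartilage matrix genes 4 were higher and 19 lower; of all 5564 genes compared, 1157 were higher and 2696 lower in all pups.

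Cartilage genes were lower in them. Matn1, a cartilage matrix protein, was at 1613 against 6576 CPM and Epyc, the proteoglycan epiphycan, at 316 against 1243. The resting-zone markers did not go together here. Wif1 was at 600 against 136 CPM and Grem1 at 179 against 134, but Scube3 was lower, at 90.1 against 152 CPM, and so was Ucma, at 4029 against 5525. No test was made, as the boundary came from the same cells.

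Dlk1-high chondrocytes were compared with the Dlk1-low cells, which passed the same limits on every other gene. The Dlk1-low cells were deeper (medians of 14874.5 to 22204 UMIs), so each was paired with the Dlk1-high cell of the same pup nearest to it in UMIs, giving 299, 569, 451, 532 and 409 pairs in pups 1 to 5. In pup 3 the pairing was incomplete, with medians of 15243 and 17972 UMIs. The genes of the rule were left out, and the groups were still chosen on Dlk1, so the comparison says which genes go with Dlk1. Of 13400 genes, 2491 (18.6%) were higher and 2579 (19.2%) lower in Dlk1-high chondrocytes at an adjusted p below 0.05 (edgeR quasi-likelihood test with pup as a block and Benjamini-Hochberg adjustment). Without the pup block 2608 genes passed, with DESeq2 2910, and against only those counterparts that had no Dlk1 UMI 1847. In the values below without the Col1a1-high cells, these were taken out of the Dlk1-high side only. Over all genes, 2235 of 13202 were then higher and 2154 lower. Of the Dlk1-low cells 3.16 to 11.5% per pup were Col1a1-high and stayed in. A fall of Col1a1 and of genes that go with it is thus built into that setting.

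Markers of the resting zone were higher. Grem1 was at 114, 68.0, 115, 95.0 and 69.9 CPM in the paired Dlk1-high cells of pups 1 to 5 and at 2.45, 1.46, 2.19, 7.49 and 5.18 in the Dlk1-low cells, a log2 difference of 4.68 ± 0.34 (SE, edgeR adjusted p = 0.000682). Wif1 was 3.13 ± 0.32 higher (edgeR adjusted p = 0.00244) and Scube3 0.74 ± 0.06 higher (edgeR adjusted p = 5.29e-09), each in 5 of 5 pups. The levels of all of these genes in the Dlk1-low cells did not overlap those in the Dlk1-high cells. Of 18 resting-zone genes 12 were higher and 3 lower, with a median log2 difference of 1.12 against -0.02 for all genes; without the Col1a1-high cells 9 of 17 were higher and 3 lower. Gas1, a cell-surface protein that binds hedgehog, was 3.02 ± 0.13 higher, Clu (clusterin) 1.79 ± 0.10 and Ucma 1.50 ± 0.15, while Foxa2, a forkhead transcription factor, was among the 3 that were lower (-0.68 ± 0.10). That list holds the markers Grem1, Wif1 and Scube3 and was drawn up with earlier results of these data known.

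Of 10 secreted inhibitors of Wnt signalling 8 were higher and none lower, and without the Col1a1-high cells 5 of 8 were higher and 1 lower. Sfrp2 was 3.88 ± 0.29 higher, Frzb 1.31 ± 0.13 and Sfrp1 1.11 ± 0.09. Among BMP antagonists, by contrast, 6 of 14 were higher and 3 lower. Fstl1 was 1.67 ± 0.17 higher beside Grem1, whereas Chrdl1 (-1.24 ± 0.13), Nog (-0.75 ± 0.09) and the intracellular inhibitor Smad7 (-0.46 ± 0.05) were lower. In the Notch pathway, to which DLK1 is related, 8 of 23 genes were higher and 3 lower, and without the Col1a1-high cells 5 of 22 were higher and 3 lower. Over all genes 18.6% were higher and 19.2% lower, and without those cells 2235 and 2154 of 13202. Hes1, a target of Notch, was 0.64 ± 0.08 higher.

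In the list of FGF and natriuretic peptide genes 14 of 18 were higher and 2 lower, with a median of 1.18. The receptor Fgfr1 was 2.06 ± 0.11 higher and the feedback genes of FGF signalling Etv5, Dusp6 and Spry2 were 1.88 ± 0.11, 1.22 ± 0.16 and 1.14 ± 0.13 higher, but Prkg2, a kinase through which natriuretic peptide acts, was lower (-0.92 ± 0.15). In the insulin-like growth factor (IGF) list 15 of 23 were higher and 5 lower, among them the binding proteins Igfbp5 (2.74 ± 0.42 higher) and Igfbp4 (2.17 ± 0.11) and the protease Pappa2 (2.32 ± 0.11), which releases IGF from its binding proteins.

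Of 23 imprinted and related growth genes, 14 were higher and 5 lower, with a median of 0.20. The 3 noncoding RNAs of the Dlk1 cluster were all higher, Meg3 by 1.48 ± 0.12, Rian by 1.53 ± 0.18 and Mirg by 1.44 ± 0.08. Rian was at 653, 511, 848, 1016 and 807 CPM in the Dlk1-high cells and at 272, 169, 184, 387 and 343 in the Dlk1-low cells. Mest, from another imprinted locus, was 1.99 ± 0.12 higher and Dcn, the proteoglycan decorin, 2.63 ± 0.09.

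Genes of column, prehypertrophic and hypertrophic cells were lower, with 11 of 18 lower and 2 higher and a median of -0.51. Panx3 was at 517, 461, 431, 589 and 369 CPM in the paired Dlk1-high cells and at 1049, 1046, 1384, 1102 and 811 in the Dlk1-low cells (-1.18 ± 0.13, edgeR adjusted p = 0.00244). Pth1r was lower by a like amount (-1.02 ± 0.16), as were Smpd3, a sphingomyelinase needed for mineralised cartilage (-1.08 ± 0.12), Wnt4 (-1.22 ± 0.13) and the osteoblast and hypertrophy factors Sp7 (-0.97 ± 0.05), Dlx5 (-0.98 ± 0.08), Runx2 (-0.68 ± 0.04), Runx3 (-0.76 ± 0.06) and Mef2c (-0.70 ± 0.06).

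The size of these differences depended on which Dlk1-high cells were compared. The paired cells were deep and poor in Dlk1, with medians of 21 to 33 Dlk1 UMIs among 14392 to 22224 UMIs, against 31 to 45 among 6832 to 11819 for all Dlk1-high chondrocytes. They also held more Panx3 than all Dlk1-high chondrocytes, in which Panx3 was at 94.2 to 141 CPM. With all cells used and no pairing, the difference of Panx3 was -2.91 and that of Sp7 -2.49, and without the deepest 10% of Dlk1-high chondrocytes in each pup they were -4.36 and -3.14. The lower genes of largest change that stood with these were Ppa1, Sgms2, Fxyd2, Grb14 and Slc35g1, at -1.01 to -0.91. Depth and Dlk1 level change together in these settings and cannot be told apart, and doublets, which are deep, were not called.

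Of 25 cartilage matrix genes 17 were lower and 4 higher, by modest amounts: Prelp by -0.69 ± 0.04, Hapln1, the link protein of aggrecan, by -0.56 ± 0.04, and Snorc by -0.52 ± 0.05. Chad and Fmod were higher, by 1.03 ± 0.06 and 0.58 ± 0.11. Of 32 genes of calcium signalling and mechanosensing 8 were higher and 10 lower, beside 18.6% higher and 19.2% lower over all genes. Trpv4, the channel mutated in 3 of the pups, was at 272, 157, 144, 260 and 258 CPM in Dlk1-high and 315, 187, 204, 303 and 305 CPM in Dlk1-low cells (-0.28 ± 0.04, edgeR adjusted p = 3.91e-05), lower in 5 of 5 pups, whereas the calcineurin regulator Rcan1 was 0.94 ± 0.16 and the calcineurin-dependent factor Nfatc1 0.56 ± 0.07 higher. Both measured metallothioneins were higher, Mt2 by 1.78 ± 0.21 and Mt1 by 0.39 ± 0.04.

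Markers of perichondrium, tendon and osteoblasts moved with these results. All 12 measured markers of that list were higher in the Dlk1-high chondrocytes, and their sum was 20199 to 37362 CPM against 2525 to 9786 in the Dlk1-low cells. Without the Col1a1-high cells, taken out of the Dlk1-high side only, 6 of 12 were higher and 2 lower. Col1a1 itself was lower (-1.67), a fall that this choice of cells builds in. Srpx2, Tnn, Fap and Fbn2, also among the 12 higher genes of largest change, were 3.33, 3.10, 2.84 and 2.80 higher with the Col1a1-high cells included. Of 15 genes of articular and superficial cartilage 13 were higher and none lower, and without the Col1a1-high cells 8 were higher and 1 lower. Several other differences shrank with their removal. Igf1, insulin-like growth factor 1, was 3.21 ± 0.23 higher with them and 0.66 without, Igfbp5 1.15 without, and Wif1 1.72 without. Aspn, 2.74 ± 0.23 higher with them, was at -0.66 without them (edgeR adjusted p = 0.0507). Dkk3, a secreted protein grouped with the Wnt inhibitors, turned from 2.50 to -0.78. Igf1, Igfbp5, Wif1, Aspn and Dkk3 were all higher in Col1a1-high than in the other Dlk1-high chondrocytes. Their fall was thus built into a cut of the Dlk1-high side alone. Grem1 (4.54), Cxcl14 (3.55 against 3.72), Gas1 (2.74), Meg3 (1.54) and Etv5 (1.81) kept most of their difference, as did Panx3 (-1.18).

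**Figure D3:**
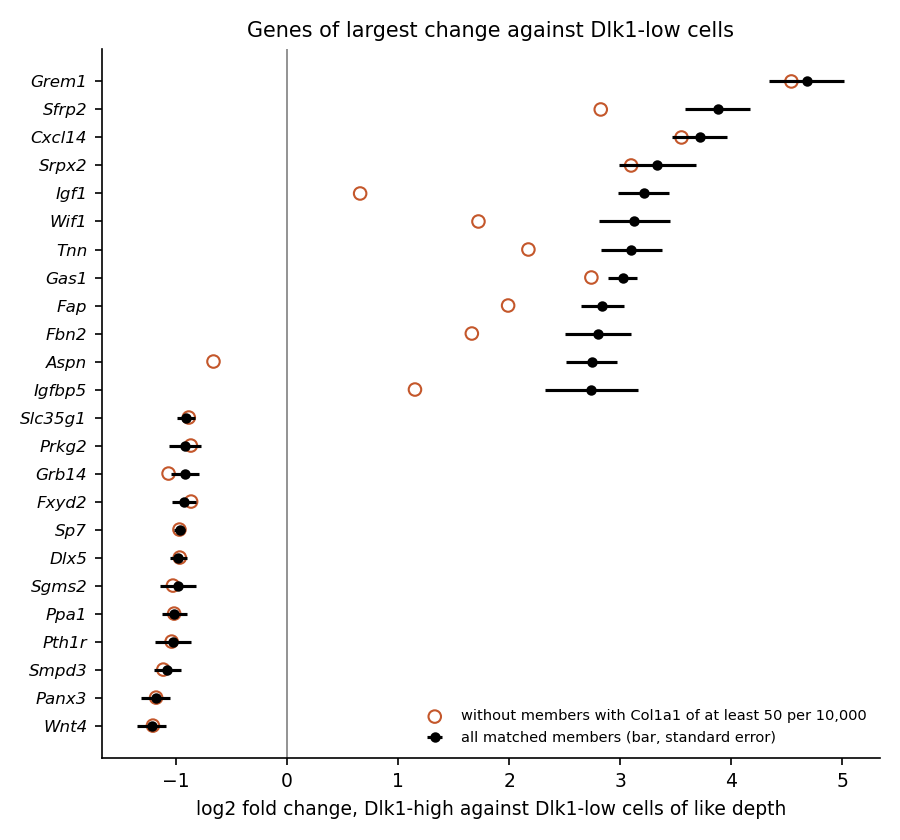
Log2 difference (horizontal axis) of the 12 higher and 12 lower genes of largest change between Dlk1-high and Dlk1-low cells of like depth over 5 pups, with standard errors (black), and the same with Col1a1-high cells left out of the Dlk1-high side only (open circles). Igf1, Wif1, Igfbp5 and Aspn lie far to the left of their first value without the Col1a1-high cells, Aspn on the other side of 0, while Grem1, Cxcl14 and the lower genes stay near theirs.

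Markers of other cell types were also measured in both groups. Macrophage and blood markers summed to 11.6 to 70.5 CPM in the paired Dlk1-high cells and 6.93 to 86.6 in the Dlk1-low cells, and of 11 measured 3 were higher and none lower; without the Col1a1-high cells 6 of 12 were higher and none lower, with a median of 1.33. Erythroid markers summed to 11.5 to 802 CPM in the paired Dlk1-high cells and 16.2 to 415 in the Dlk1-low cells, highest in WT pup 2 in both, and none of 5 measured passed. Endothelial and pericyte markers summed to 418 to 667 and 454 to 660 CPM, and of 7 measured 2 were higher and 2 lower. The 22 genes of the response to dissociation summed to 18555 to 23690 and 18722 to 24343 CPM in the Dlk1-high and Dlk1-low cells, with 9 higher and 3 lower.

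Pthlh-expressing cells were the nearest neighbours of the Dlk1-high chondrocytes, differing by rule in holding at least 2 Pthlh UMIs and in having no limit on Dlk1. There were 88 and 67 in the WT pups and 27, 58 and 88 in the mutant pups, with medians of 6870 to 12372 UMIs. They held as much Dlk1 (3790 ± 490 CPM against 4187 ± 484, SD, 5 pups). Of 15508 genes 242 (1.56%) were higher and 139 (0.896%) lower in the Dlk1-high chondrocytes (edgeR quasi-likelihood test with pup as a block, adjusted p below 0.05). Standard errors and p-values of this test rest on a variance drawn mostly from all genes, so very small p-values do not come from the 5 pups alone. They do not measure the spread of a gene among the 5 pups, which the values per pup show where they are printed. Without the pup block 17 genes passed, with DESeq2 130. With size factors by relative log expression 161 genes were higher and 166 lower, and with no filter on low counts 302 and 96, so the balance of directions depended on both the scaling and the filter.

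Among the genes lower in Dlk1-high chondrocytes were several of secreted signals and their inhibitors. Sfrp5, a secreted Wnt inhibitor, was at 151, 176, 82.2, 52.7 and 169 CPM in the Dlk1-high chondrocytes of pups 1 to 5 and at 550, 387, 347, 143 and 552 in Pthlh-expressing cells (-1.63 ± 0.09, edgeR adjusted p = 7.56e-75). Every pup had the lower value in the Dlk1-high chondrocytes, although pup 4 was low in both groups. Hhip, which binds hedgehog ligands and is a target of hedgehog signalling, was lower (-1.55 ± 0.17), as were the guidance factor Ntn1 (-1.59 ± 0.13), the growth factor Bmp3 (-1.57 ± 0.19), the IGF-releasing protease Pappa2 (-0.96 ± 0.12), the Wnt receptor Fzd7 (-0.61 ± 0.12) and the Notch target Hes1 (-0.87 ± 0.14). Map2, Fbln2, Fhl1 and Smoc1 were lower by -0.69 to -0.55.

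Grem1 was higher, at 229, 126, 196, 166 and 144 CPM against 95.9, 37.8, 152, 77.6 and 104 (0.98 ± 0.11, edgeR adjusted p = 3.13e-16), in 5 of 5 pups. Scube3 (0.04 ± 0.10, edgeR adjusted p = 0.927) and Ucma (-0.04 ± 0.06, edgeR adjusted p = 0.882) gave no call. Wif1 was 0.58 ± 0.09 higher (edgeR adjusted p = 9.11e-09), but without the Col1a1-high cells it was lower (-0.56). Those cells were again taken out of the Dlk1-high side only, and Pthlh-expressing cells kept theirs. Since Col1a1-high cells held more Wif1 than the rest, a fall was built in. Of 18 resting-zone genes 3 were higher and 1 lower, and without the Col1a1-high cells 2 were higher and 3 lower. Over all genes, 428 of 14676 were higher and 321 lower without the Col1a1-high cells. Of 11 Wnt inhibitors 2 were higher, among them Frzb (0.43 ± 0.08), and 2 lower. Without the Col1a1-high cells 1 of 10 was higher and 6 were lower, with a median of -0.92. As only the Dlk1-high side was cut, a fall of inhibitors rich in Col1a1-high cells, such as Wif1, Sfrp2 and Dkk3, was built in.

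Of 25 cartilage matrix genes 14 were higher and 2 lower, with Comp (0.68 ± 0.07), Prelp (0.58 ± 0.08) and Matn3 (0.35 ± 0.06) among the higher and Matn4 (-0.42 ± 0.12) among the lower. Of 23 transcription factors of chondrocytes 9 were higher and 1 lower, and of 18 genes of column and later stages 7 were higher and 2 lower. Spp1, the mineral-binding protein osteopontin, was at 66.3, 49.8, 55.2, 85.0 and 75.1 CPM against 8.90, 17.1, 17.3, 14.6 and 50.8 (1.58 ± 0.17). Smpd3 (1.41 ± 0.12), Sp7 (1.63 ± 0.28), Ppa1 (1.58 ± 0.11), Car12 (1.23 ± 0.15) and Ptgs2 (1.17 ± 0.14), the inducible prostaglandin synthase, were also higher, as were Tnfaip2, Ccdc80, Fabp5, Tgm2, Tm4sf1 and Sbno2 by 0.87 to 1.54.

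Part of this group rested on the deepest cells. Without the deepest 10% of Dlk1-high chondrocytes Smpd3 was 0.39, Ppa1 0.28 and Sp7 0.02 higher, and none of the 3 passed, while Car12 was at -0.05, Pth1r, 0.66 ± 0.15 higher with all cells, at -0.03 and Runx3 at -0.19. Spp1, Comp and Grem1 kept their calls.

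Genes of the response to dissociation moved with this comparison. Of 22 such genes none was higher and 7 were lower in Dlk1-high chondrocytes, including the heat shock genes Hspa1b (-1.23 ± 0.10) and Hspa1a (-0.93 ± 0.12) and the immediate early genes Egr2, Klf2 and Egr1 (-0.83 to -0.36), and the list summed to 14651 to 22653 CPM against 21477 to 29720. Its part in the other differences was not tested. Of 12 macrophage and blood markers 3 were higher and none lower, with sums of 12.6 to 69.2 and 0 to 92.8 CPM. Of 12 markers of perichondrium, tendon and osteoblasts 4 were higher and 1 lower, with a median of 0.25 against 0.04 for all genes, and with sums of 29677 to 46705 and 24281 to 50866 CPM. Without the Col1a1-high cells of the Dlk1-high side 1 was higher and 8 were lower, with Postn going from 0.38 to -1.90 and Col3a1 from 0.26 to -0.45. Pthlh-expressing cells kept their Col1a1-high cells, so a fall of these markers was built in. In that setting 749 genes passed in all. Without mutant pup 3, which had the fewest Pthlh-expressing cells, 508 genes passed, and without mutant pup 5, 211.

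The share of Dlk1-high chondrocytes was compared between genotypes. They were 24.9 and 22.7% of kept cells in the WT pups and 17.5, 24.7 and 32.2% in the mutant pups. The WT values lay inside the mutant range, and the means of 23.8 ± 1.54% and 24.8 ± 7.32% (SD, n = 2 and 3) differed by 0.994 percentage points (exact permutation test, two-sided, p = 1). The smallest p that this test can give with these pups is 0.2. Of Col2a1-high cells they were 42.0 and 43.8% in WT and 38.6, 44.1 and 45.3% in mutant pups, a difference of -0.236 points, so the spread among the mutant pups was smaller once cells without high Col2a1 were set aside. The sign also turned without WT pup 2 (-0.0972 points) and without mutant pup 5 (-2.69 points), and without mutant pup 3 the difference was 4.63 points. Among the pups without Xist, 2 WT and 1 mutant, the shares were 23.8 and 32.2%, 8.36 points apart. With cells thinned to 5000 UMIs it was 4.10 points (exact permutation test, p = 0.6). Col1a1-high cells made up 31.0 ± 4.87% of the Dlk1-high chondrocytes in WT and 34.0 ± 6.27% in mutant pups (exact permutation test, p = 0.6).

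Dlk1 per cell was also compared. Over all cells that passed the other limits, whatever their Dlk1, the median was 39.2 and 34.3 Dlk1 UMIs per 10000 in the WT pups and 48.5, 44.5 and 43.6 in the mutant pups. The mutant pups lay above the WT pups without overlap, with a difference of 8.83 (exact permutation test, two-sided, p = 0.2, the smallest it can give, n = 2 and 3). The median depth of the mutant pups lay below that of the WT pups.

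**Figure D4:**
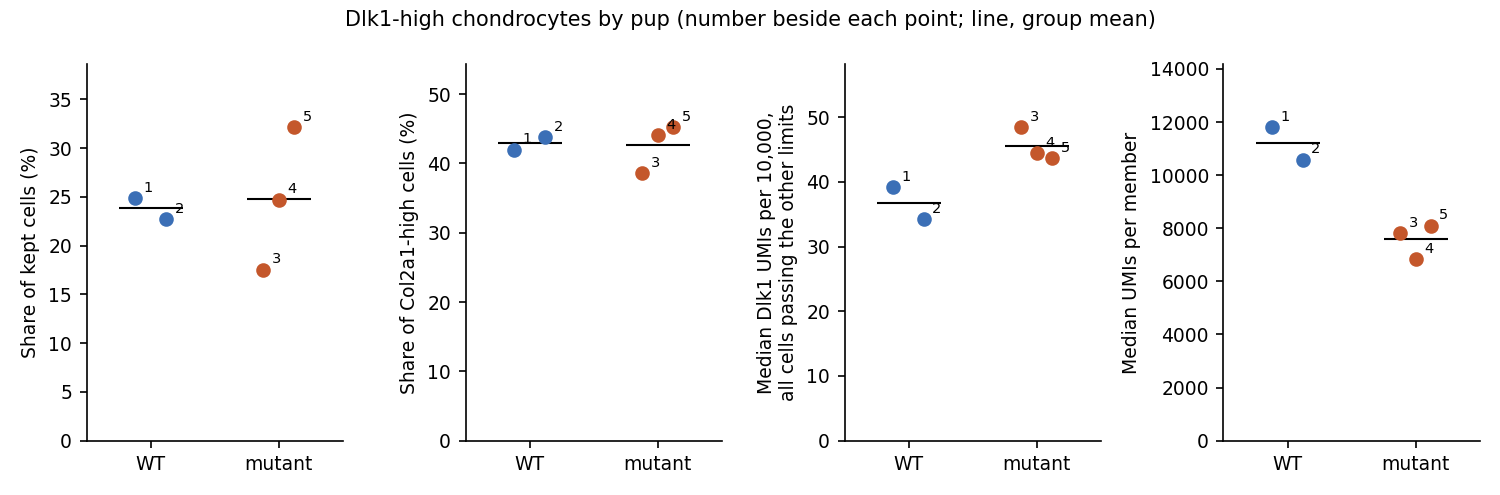
From left to right, the share of Dlk1-high chondrocytes among kept cells and among Col2a1-high cells (percent), the median Dlk1 UMIs per 10000 in all cells that passed the other limits, and the median UMIs of a Dlk1-high chondrocyte; points are pups, with their number, and lines are group means. Shares of the 2 WT pups lie within the range of the 3 mutant pups, while the medians of Dlk1 and of depth do not overlap between genotypes.

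Expression in Dlk1-high chondrocytes was then compared between mutant and WT pups. Trpv4, whose locus carries the mutation, was at 203 and 126 CPM in WT and 119, 200 and 199 CPM in mutant cells, so that the groups overlapped (log2 difference 0.07 ± 0.30, edgeR adjusted p = 0.955). The counts do not tell the mutant from the normal transcript and hence do not check recombination. None of 16891 genes passed an adjusted p below 0.05 in the edgeR quasi-likelihood test (0% higher and 0% lower), although 1619 had an unadjusted p below 0.05 and DESeq2 called 137, of which 107 were higher and 30 lower in mutant cells. With no filter on low counts edgeR called 23 genes. The pups without Xist include only 1 mutant pup, so no count of calls is given for them. Mutant and WT pups did not overlap in 2270 genes (13.4%) with the mutant pups above and in 2383 (14.1%) with them below.

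The 10 genes of smallest p, at a mean of at least 20 CPM, did not pass. Choosing by smallest p favours genes with little spread within the groups and no overlap between them. Adgrg6, an adhesion G protein-coupled receptor, was at 40.4 and 41.6 CPM in WT and at 70.6, 71.7 and 69.1 CPM in mutant cells (0.78 ± 0.08, edgeR adjusted p = 0.181). Fgf2, a ligand of FGF receptors, was at 33.8 and 32.6 against 47.1, 49.3 and 46.6 CPM (0.52 ± 0.08, edgeR adjusted p = 0.329), and Acvr1, a receptor for BMPs and activins, at 49.5 and 53.2 against 74.1, 77.2 and 71.3 CPM (0.53 ± 0.09, edgeR adjusted p = 0.329). The chemerin receptor gene Cmklr1 was 0.71 ± 0.10 above WT, Cdca4 0.57 ± 0.08, Hmga1, a chromatin protein of growing cells, 0.61 ± 0.10, the integrin chain Itga9 0.52 ± 0.09 and Steap4, a metalloreductase, 0.82 ± 0.14. Nos1, the neuronal nitric oxide synthase, was at 23.6 and 26.6 against 15.4, 14.3 and 16.4 CPM (-0.71 ± 0.10, edgeR adjusted p = 0.301) and the tubulin Tubb4b at 129 and 131 against 88.5, 86.0 and 90.1 CPM (-0.56 ± 0.08, edgeR adjusted p = 0.301).

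**Figure D5:**
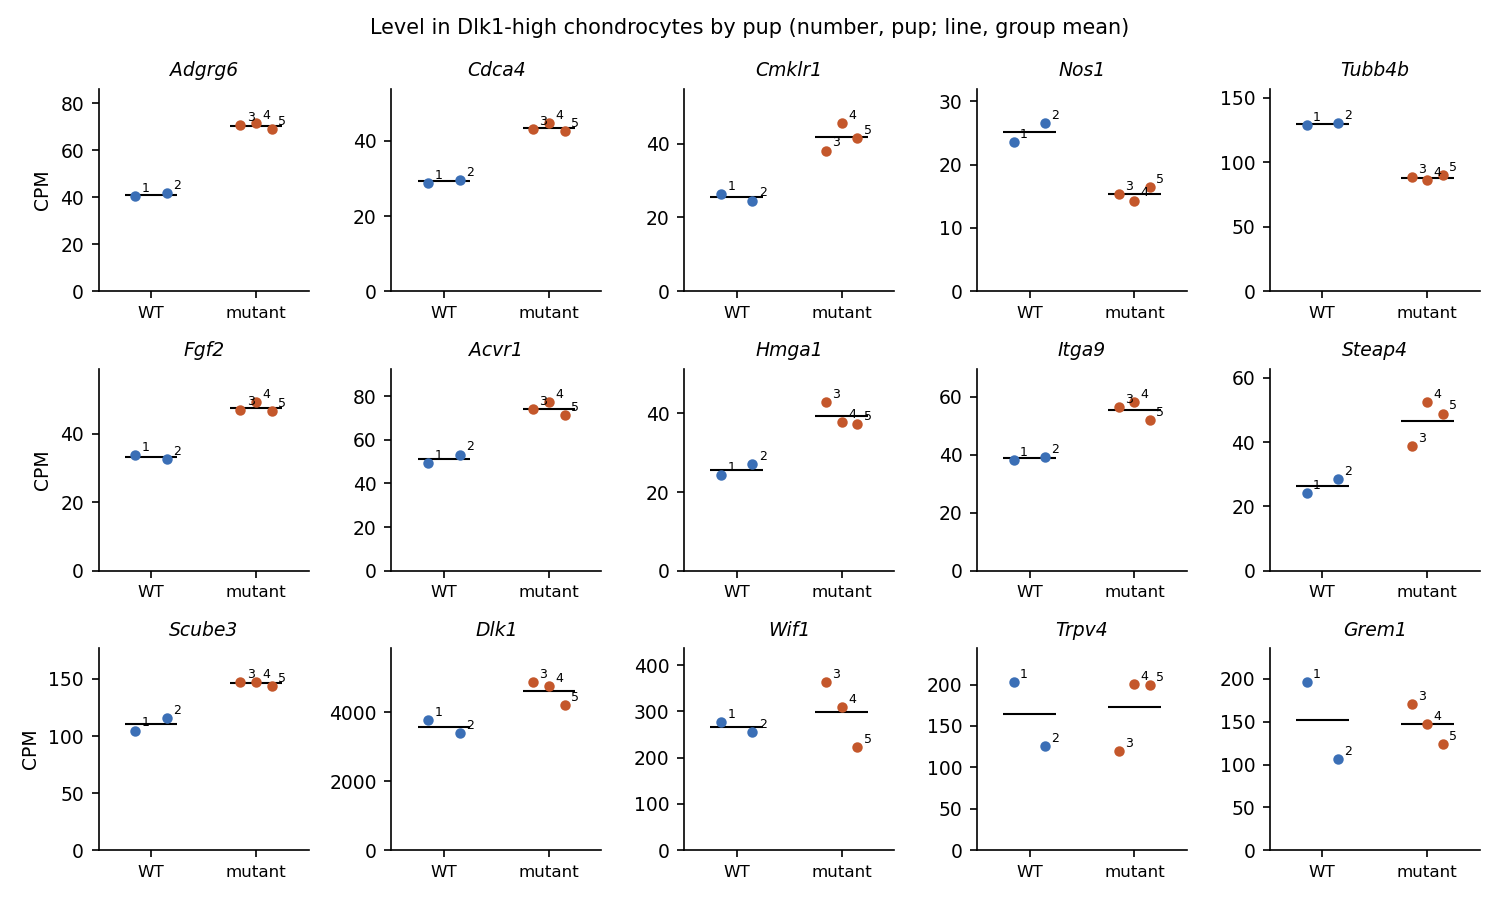
Level in CPM (vertical axes, each from 0) in the Dlk1-high chondrocytes of each pup (points, with pup number; lines, group means) for the 10 genes of smallest p between mutant and WT and for Scube3, Dlk1, Wif1, Trpv4 and Grem1. The groups do not overlap for the first 10 genes, which the choice by smallest p favours, nor for Scube3 and Dlk1, and overlap for Wif1, Trpv4 and Grem1.

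Of the marker genes, Scube3 was at 105 and 116 CPM in WT and 148, 148 and 144 in mutant cells, without overlap (0.41 ± 0.09, edgeR adjusted p = 0.363). Dlk1 was 0.36 ± 0.11 above WT (edgeR adjusted p = 0.411), again without overlap, but it also chose the cells. Grem1, at 197 and 106 against 171, 148 and 124 CPM, and Wif1, at 277 and 256 against 364, 310 and 222 CPM, overlapped.

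The lists gave counts of genes without overlap to be read against 13.4% above and 14.1% below. In the FGF and natriuretic peptide list 10 of 20 genes were above and none below, with a median log2 difference of 0.38 against -0.01 for all genes. Of 25 imprinted and related genes 9 were above and 1 below, of 23 transcription factors 9 and 1, of 18 resting-zone genes 5 and 2, of 32 calcium and mechanosensing genes 8 and 1, and of 25 cartilage matrix genes 1 and 4. Of 12 macrophage and blood markers none was above and 6 were below (median -0.84), with sums of 69.2 and 55.5 CPM in WT and 34.9, 12.6 and 26.6 in mutant cells. Of 22 dissociation genes none was above and 6 were below, with sums of 22653 and 22148 against 14651, 17700 and 22297 CPM, the last of them inside the WT values. Of 12 markers of perichondrium, tendon and osteoblasts 2 were above and none below (median 0.34). Of 8 endothelial and pericyte markers none was above and 2 were below (median -0.51), and all 6 erythroid markers overlapped (median -0.94). The part of these marker lists and of the dissociation genes in the comparison by genotype was not tested.

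The effect of genotype was compared between Dlk1-high and Dlk1-low cells of like depth. In the edgeR interaction test 1 of 13400 genes passed, Bmp3 (0% higher and 0.00746% lower), against 581 genes at an unadjusted p below 0.05. DESeq2 also called 1 gene, Eln, which encodes elastin, and with all cells, unpaired, edgeR called 0 genes against 805 at an unadjusted p below 0.05.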

How the data were processed

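Raw UMI counts per gene and cell were deposited by the authors for each of 5 pups (BD Rhapsody, with demultiplexing and transcript counting by a cloud pipeline; mm10 per the labels; version and gene annotation not given in the sources used here), before filtering. Depth is given in the report. Cells were kept as in the study (200 to 6000 genes, at most 10% mitochondrial UMIs) and chosen by the rule on gene counts. The members, lists and tests were chosen with earlier results of these data known. Doublets were not called; leaving out the deepest 10% of members was an alternative. Counts were summed per pup and class and tested with edgeR 4.0.16 (TMM, filterByExpr, robust quasi-likelihood, R 4.3.3), Benjamini-Hochberg at 0.05, with pup as a block between classes, since both classes come from the same animal; replicate numbers pair no pups across genotypes. CPM of single genes beside edgeR tests are TMM-scaled, except those of Bmp3 beside the interaction test. These, the list sums and all others are per raw sum. Standard errors of log2 differences were derived from the F value of the edgeR test. Its variance draws partly on all genes, and mostly so in the comparison with Pthlh-expressing cells. The standard errors do not measure the spread among pups. The planned pairing of each member with a Dlk1-low cell was turned round because Dlk1-low cells were fewer. Shares were tested by exact permutation (scipy 1.17.1). Cells sharing an index number across files were kept. Alternatives were DESeq2 1.42.0, other scaling, filters, limits and pairing, leaving out each pup, and, added after seeing the data, leaving out Col1a1-high members (counterparts kept theirs) and lifting the Dlk1 limit. Scripts were tested on simulated data. Named genes were the markers and Trpv4, members of the lists (mean CPM 20 or higher), the 12 largest changes each way (mean CPM 50 or higher, 1 direction in all pups), and the 10 smallest p between genotypes (20 CPM); genes in the descriptions by Dlk1 and Col1a1 were chosen after their values were seen. Coordinates are from GENCODE on GRCm38. Each pup is 1 animal; descriptive shares and levels cover cells of that pup only.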

Additional observations from a re-analysis of the deposited data

Results flagged for a closer look

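Bmp3, a ligand of the BMP family, was the 1 gene whose effect of genotype differed between Dlk1-high and Dlk1-low cells by a test of the difference itself (log2 difference of -2.98 ± 0.40 between the 2 effects, edgeR quasi-likelihood test of the interaction, adjusted p = 0.00866). In the paired Dlk1-high cells it was at 14.6 and 10.7 CPM in WT and 5.90, 6.14 and 6.04 CPM in mutant pups, from 97 and 127 and from 42, 47 and 39 UMIs. In the Dlk1-low cells it was at 1.05 and 0.744 CPM in WT and 4.79, 2.69 and 3.24 CPM in mutant pups, from 7 and 9 and from 38, 21 and 21 UMIs. The effects were thus of opposite sign, on few UMIs, with WT above mutant in Dlk1-high and below it in Dlk1-low cells in every pup. Over all Dlk1-high chondrocytes Bmp3 was at 17.0 and 17.0 CPM in WT and 6.22, 4.02 and 11.3 CPM in mutant pups. Bmp3 was no longer called without WT pup 1, with DESeq2 or with all cells, unpaired.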

How the results depend on the processing

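The count of genes called between mutant and WT was 0 with edgeR but 137 with DESeq2, 23 with no filter on low counts, 28 in the pups without Xist and 0 to 11 when 1 pup was left out (11 without mutant pup 5, 10 without WT pup 2, 5 without WT pup 1). Between Dlk1-high and Dlk1-low cells, 5070 calls became 2910 with DESeq2, 2608 with no replicate block, 1847 against counterparts with no Dlk1 UMI, 9493 unpaired and 4188 to 4594 without 1 pup. Between Dlk1-high and Pthlh-expressing cells, 381 became 130 with DESeq2, 17 with no replicate block, 749 without Col1a1-high cells and 211 to 508 without 1 pup. The interaction gave 24 calls with no filter, 0 unpaired and 1 to 13 without 1 pup (6, 9 and 13 with WT pup 2, mutant pup 3 or mutant pup 5 left out). The difference in share ranged from -2.69 to 4.63 points without 1 pup, was -0.236 of Col2a1-high cells and 8.36 in the pups without Xist. The other settings left each count within 1.5 times of its value and the difference in share between 0.857 and 4.10 points. Of single genes by genotype, the log2 difference with 1 pup left out ran from -0.42 to 0.47 for Grem1, -0.24 to 0.45 for Trpv4 and -0.00169 to 0.33 for Wif1, so these changed sign, as did Wif1 (-0.26) and Ddx3y (0.22) in the pups without Xist. Against Dlk1-low cells, Aspn (-0.66), Cilp2 (-0.55), Col1a1 (-1.67), Dkk3 (-0.78), Postn (-0.29) and Thbs4 (-0.52) turned without Col1a1-high cells. In this and the next comparison these cells left the Dlk1-high side only, so a shift of genes that go with Col1a1 was built in. Against Pthlh-expressing cells, Wif1 (-0.56), Postn (-1.90), Col3a1 (-0.45) and Ucma (0.075) turned without Col1a1-high cells, Car12 (-0.049), Pth1r (-0.025), Runx3 (-0.19) and Ucma (0.19) without the deepest 10%, Scube3 with DESeq2 (-0.00495) and relative log expression (-0.0102), and Ucma with no filter (0.0140) and without 1 pup (-0.062 to 0.032). Beyond the alternative's own construction, the cause was not tested. With 2 and 3 pups no exact test could reach 0.05, and Pthlh-expressing sums rest on 27 to 88 cells per pup.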

Other observations

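Several genes near the top of the list by genotype also followed Dlk1 within the Dlk1-high chondrocytes. Between the quartile of cells with the least and that with the most Dlk1 per UMI, Adgrg6 went from 24.9 to 93.7 CPM, Itga9 from 21.8 to 69.2, Steap4 from 14.0 to 53.2 and Fgf2 from 20.3 to 63.5, as means over 5 pups. All 4 were above WT in the mutant pups, and so was Dlk1. The quartile with the least Dlk1 also held deeper cells. Whether the values by genotype hold at equal Dlk1 or equal depth was not tested.

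Among the genes that varied most from cell to cell, 2 were picked after their values were seen. Mt2, a metallothionein, ranked just behind Col1a1 and Col1a2 in variability in every pup and was detected in 36.6 to 42.5% of Dlk1-high chondrocytes. Cxcl10, a chemokine, was detected in 8.68 to 10.7% of them, at 89.1 to 118 CPM.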
